A study of Mus musculus with 6 samples.

Results

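The genes described here are the calcium pumps of the sarcoplasmic reticulum, the small proteins that regulate them, and the calcium buffers of muscle: Atp2a1, Atp2a2 and Atp2a3, Pln and Sln, Casq1, Casq2, Srl and Hrc, and Pvalb. They were chosen by gene symbol, 10 of the 27131 rows of the deposited table, and each had a single row. The RNA came from LA/BC, the joined levator ani and bulbocavernosus, a pelvic muscle group that depends on androgens, of mice aged 14 weeks. The question put by the design is how gene expression in LA/BC is altered in a knock-in model of spinal and bulbar muscular atrophy (SBMA), an inherited disease of motor neurons and muscle. The groups were 3 mice of genotype WT and 3 mice of genotype 113Q, both kept on standard chow. The labels give no strain, sex, litter or batch for either group, and each library came from its own mouse.

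A muscle fibre contracts when calcium leaves the sarcoplasmic reticulum and relaxes when the SERCA pumps return it at the cost of ATP. Mammals have several SERCA genes: Atp2a1 encodes SERCA1 of fast skeletal fibres, Atp2a2 encodes SERCA2 of slow fibres, heart and smooth muscle, with a splice form found in most cells, and Atp2a3 encodes SERCA3, best known from platelets, lymphoid cells and epithelia. Phospholamban (Pln) and sarcolipin (Sln) are short membrane proteins that bind SERCA and lower its activity. Inside the reticulum, calsequestrins 1 and 2 (Casq1 and Casq2) hold most of the stored calcium, with sarcalumenin (Srl) and the histidine-rich calcium-binding protein (Hrc) as further buffers, while parvalbumin (Pvalb) binds calcium in the cytosol of fast fibres and speeds relaxation.

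The libraries held 43581087 to 73873481 estimated counts. Levels are given in CPM, counts relative to the library's total, scaled by TMM, edgeR's factors that align the bulk of genes between libraries. Those factors were 0.768 to 0.794 in WT and 1.26 to 1.32 in 113Q, and the 20 most abundant genes held 30.8% to 32.7% of counts in WT and 14.1% to 15.7% in 113Q, so the scaling itself follows the genotype. The tissue carried its defining markers: the summed level of 9 fast fibre sarcomere genes was 138883 to 147660 CPM in WT and 30552 to 34168 CPM in 113Q. All 9 were lower in 113Q at an edgeR adjusted p below 0.05 (median log2 fold change -1.87), against 18.1% of all genes tested. For Myh4, 1 of the 9, the call (adjusted p = 0.0404) was lost in 8 of 18 alternative settings. The slow myosin Myh7 stayed between 0.179 and 1.67 CPM in every library. Epithelial transcripts set apart 3 libraries, those of WT mouse 2, 113Q mouse 2 and 113Q mouse 3, where Epcam, an epithelial adhesion molecule, reached 3.83, 8.29 and 10.2 CPM, against at most 0.0385 CPM in the other libraries. Of 7 epithelial markers, 0 differed between the genotypes by edgeR, DESeq2 or limma voom, and 0 at an unadjusted p below 0.05. They varied so widely within groups that these tests could hardly have called a difference. Epcam had a log2 fold change of 2.22 (SE 2.47) and Krt18 one of 2.82 (SE 1.82). Equal epithelial content in the genotypes is thus not shown.

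In 113Q muscle the main pump and the main store buffer of the fast fibre, Atp2a1 and Casq1, were lower, together with Pvalb, Sln and Hrc, while Atp2a2, Casq2 and Pln were higher. In all, 5 of the 10 transcripts were lower and 3 higher at an adjusted p below 0.05 in edgeR's quasi-likelihood test, and Atp2a3 and Srl did not pass. Over all 16960 genes tested the same threshold called 18.1% lower, 16.5% higher and 34.6% in either direction. The ranges of the groups did not overlap for 9 of the 10 transcripts, against 49.9% of all genes tested. All 10 passed the filter on low counts. The amount of these transcripts also differed as a share of the raw counts: the 10 genes held 2.44%, 2.41% and 2.54% of the counts in WT and 1.63%, 1.86% and 1.82% in 113Q, of which Atp2a1 made 1.54% to 1.74% and 0.942% to 1.13%. In whole muscle, fewer fibres of a type and less RNA per fibre cannot be told apart.

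**Figure D1:**
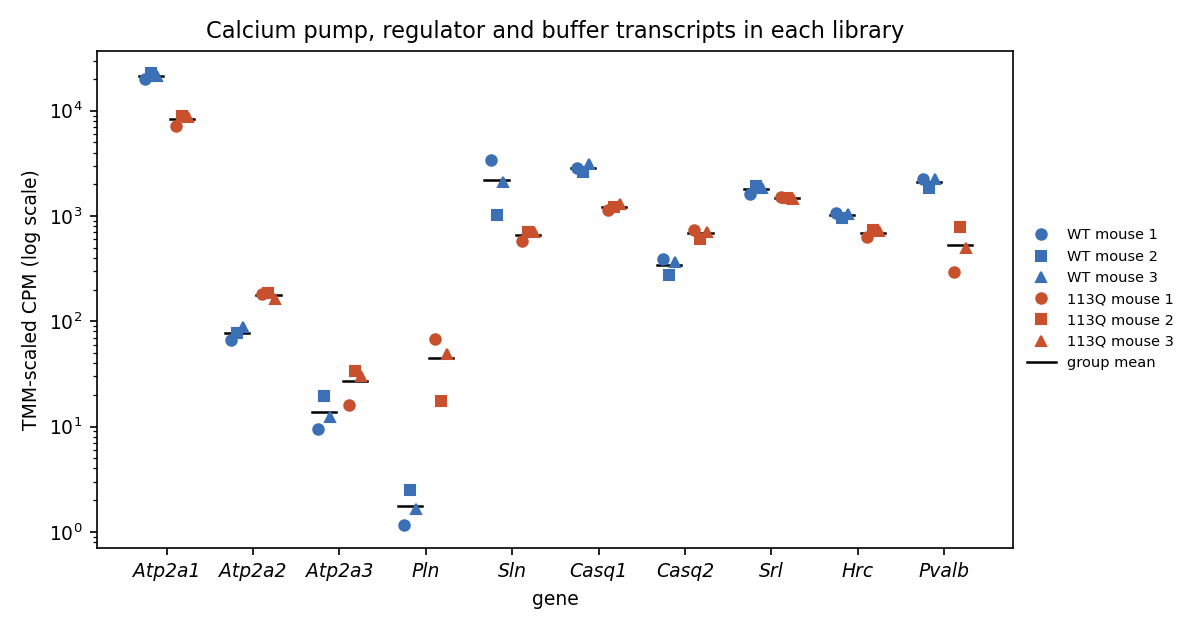
TMM-scaled CPM (log axis) of the 10 genes in each library, with WT in blue, 113Q in orange, a symbol for each mouse and a line at the group mean. Atp2a1 lies between 19812 and 22652 CPM in WT, Pln below 3 CPM in WT and between 17.6 and 67.1 CPM in 113Q, and the groups overlap for Atp2a3.

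Scaling by library totals alone, without TMM, set the median log2 fold change over the tested genes at 0.73 in place of 0.01. On that scale Srl had a log2 fold change of 0.45 (edgeR adjusted p = 0.00346) and Hrc one of 0.16 (adjusted p = 0.147), the opposite of their direction with TMM. The other 8 genes kept their direction, with Sln at -0.996 (adjusted p = 0.0977) no longer passing and Atp2a3 at 1.67 (adjusted p = 0.00788) passing. The counts then became 3 lower and 5 higher, on a scale where 64.9% of all tested genes were called higher and 4.19% lower. With a term for the libraries with epithelial transcripts the counts were 4 and 4 (Sln lost, Atp2a3 gained). That model called 18.5% of all tested genes lower and 16.8% higher. The fits of only the libraries lacking and only those holding epithelial transcripts each have a single mouse in a group, assumed to vary like those of the other, so their calls carry little weight. In them Atp2a1 had log2 fold changes of -1.52 and -1.36, Atp2a2 of 1.24 and 1.16, Casq1 of -1.38 and -1.06, Casq2 of 0.97 and 1.24 and Hrc of -0.75 and -0.41. Differences below are relative to the bulk of genes, as TMM sets it.

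**Figure D2:**
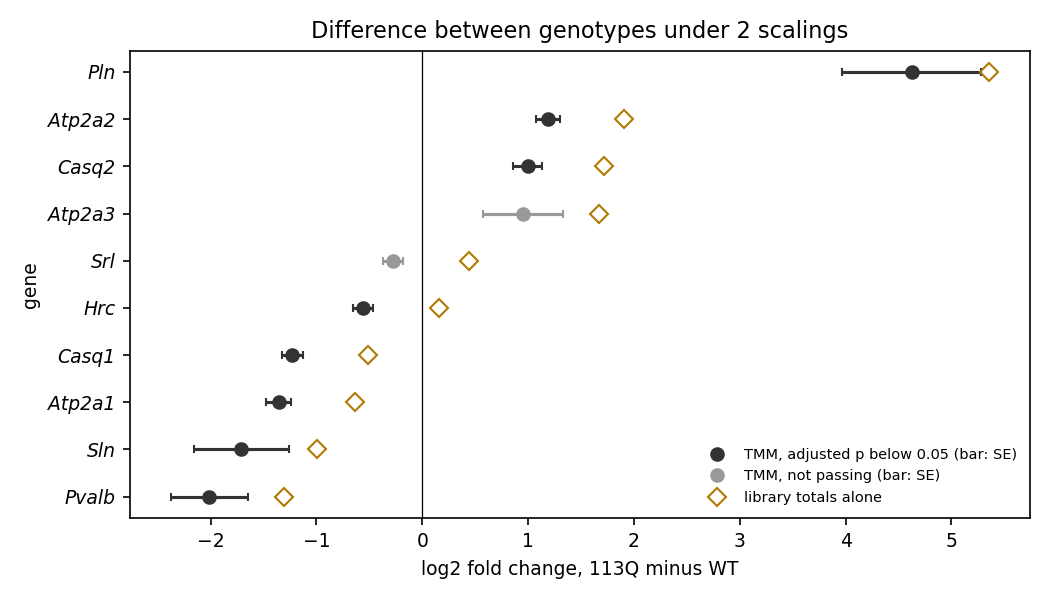
Log2 fold change, 113Q minus WT, of the 10 genes with TMM scaling (circles with the standard error, black where the adjusted p was below 0.05) and with library totals alone (open diamonds). The diamonds lie to the right of every circle, and Srl and Hrc change side of 0.

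Upstream sequence is shown for Casq1 and Casq2, close relatives that moved in opposite directions, for Atp2a1, the most abundant, and for Pln, with the largest fold change. RefSeq promoter windows on GRCm38.p6 were found for 7 of the 10 genes, with 2 windows for Pvalb. The 250 bases before each RefSeq start were searched on both strands for the E-box CANNTG bound by myogenic factors, and for the MEF2 site and the CArG box of serum response factor by their usual consensus. In the lines that follow, written 5′ to 3′ on the gene's strand, capitals mark the matches, none of which overlap, and positions below are those of the first base of a match. They stand for chr7:126463109-126463323 (minus strand, Atp2a1), chr1:172219896-172220145 (minus strand, Casq1), chr3:102086165-102086414 (plus strand, Casq2) and chr10:53337436-53337666 (plus strand, Pln). The last 35 bases of the Atp2a1 window and the last 19 of the Pln window lie inside the GENCODE gene model and are not printed.
Atp2a1: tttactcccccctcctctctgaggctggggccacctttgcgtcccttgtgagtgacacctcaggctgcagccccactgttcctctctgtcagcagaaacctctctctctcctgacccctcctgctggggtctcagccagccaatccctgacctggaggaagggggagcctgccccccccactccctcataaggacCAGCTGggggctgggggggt
Casq1: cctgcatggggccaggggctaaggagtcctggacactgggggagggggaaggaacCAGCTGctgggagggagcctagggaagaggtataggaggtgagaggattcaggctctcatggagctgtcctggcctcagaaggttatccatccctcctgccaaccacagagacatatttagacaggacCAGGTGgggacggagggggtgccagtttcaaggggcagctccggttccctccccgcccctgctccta
Casq2: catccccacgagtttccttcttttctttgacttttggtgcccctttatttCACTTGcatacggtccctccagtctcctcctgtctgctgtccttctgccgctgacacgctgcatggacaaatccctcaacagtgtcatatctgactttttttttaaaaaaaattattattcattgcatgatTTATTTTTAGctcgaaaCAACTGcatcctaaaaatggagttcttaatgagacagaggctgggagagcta
Pln: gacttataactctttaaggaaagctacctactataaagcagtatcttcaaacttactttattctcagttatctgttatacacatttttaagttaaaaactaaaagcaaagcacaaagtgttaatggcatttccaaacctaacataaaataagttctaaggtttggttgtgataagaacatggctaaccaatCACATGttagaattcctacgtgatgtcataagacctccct
Atp2a1 held a single E-box, 55 bases before its start. Casq1 held E-boxes at 195 and 67 bases before the start. Casq2 held E-boxes at 200 and 52 bases and a MEF2 match at 69 bases before the start. Pln held a single E-box, at 59 bases before the start. The other MEF2 match was in a Pvalb window, 180 bases before the start. A gene was counted where any of its windows matched, while the shares over all promoters are per window. Pvalb had its E-box in 1 of its windows and its MEF2 match in the other. An E-box was found for 6 of the 7 genes, against 66.2% of all 32851 windows of this length. MEF2 was found for 2 of 7 (2.92% of all windows) and the CArG box for 0 of 7 (1.47%). These are letter matches in a short window and describe sequence, not binding.

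Atp2a1, on chr7:126445858-126463108 of GRCm38 (minus strand), had the highest level per kilobase of exon among the 10 transcripts. It had 19812, 22652 and 21222 CPM in WT mice 1, 2 and 3 and 7144, 8913 and 8805 CPM in 113Q mice 1, 2 and 3. Every 113Q library lay below every WT library, and the spread within a group was small beside the gap. The mean fell from 21229 ± 1420.0 to 8287 ± 992 CPM (SD, n = 3 each), 2.56 times lower, with a log2 fold change of -1.36 (SE 0.11, edgeR adjusted p = 9.54e-05). Its exons share 44 bases with Rabep2 on the other strand, whose own row held 258 to 1599 counts beside 639881 to 1200360 for Atp2a1.

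Atp2a2, on chr5:122453513-122502225 (minus strand), moved the other way. It had 66.9, 78.0 and 88.3 CPM in the WT mice against 183, 186 and 164 CPM in the 113Q mice. The lowest 113Q library was well above the highest WT library. The mean rose from 77.8 ± 10.7 to 178 ± 12.1 CPM (SD, n = 3 each), 2.28 times higher (log2 fold change 1.19, SE 0.11, edgeR adjusted p = 0.000161). The counts are summed per gene, so the muscle and general splice forms of SERCA2 are not separated.

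Atp2a3, on chr11:72961169-72993044 (plus strand), had 9.48, 19.5 and 12.4 CPM in the WT mice and 16.1, 33.9 and 30.4 CPM in the 113Q mice. The groups overlapped: WT mouse 2 was above 113Q mouse 1. The log2 fold change of 0.96 (SE 0.38) did not pass (edgeR adjusted p = 0.106). Within each group the highest values were those of the libraries with epithelial transcripts. Summed over the 7 epithelial markers, the WT libraries had 2.19, 47.7 and 2.43 CPM and the 113Q libraries 1.35, 45.3 and 79.8 CPM. With a term for those libraries in the edgeR model the Atp2a3 difference was 0.64 with an adjusted p of 0.00826. Between only the libraries without them (2 WT mice and a single 113Q mouse, assumed to vary like the WT mice) it was 0.55 with an adjusted p of 0.142. Without 113Q mouse 1 it was 1.22 with an adjusted p of 0.0304. The part of epithelial RNA in the Atp2a3 level was not tested. The summed level of 8 leukocyte and platelet markers, cells in which SERCA3 is known, was 27.4 to 39.4 CPM in WT and 33.5 to 41.7 CPM in 113Q, and of the 7 tested 0 passed with edgeR, DESeq2 or limma voom, or at an unadjusted p below 0.05.

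Sarcolipin, Sln, on chr9:53850164-53854560 (plus strand), had 3439, 1022 and 2094 CPM in the WT mice against 584, 707 and 709 CPM in the 113Q mice. The 113Q libraries lay close together below all WT libraries, which spread 3.37-fold among themselves. The mean fell from 2185 ± 1211 to 667 ± 72.0 CPM (SD, n = 3 each), 3.28 times lower, with a log2 fold change of -1.71 (SE 0.45, edgeR adjusted p = 0.0356). This call was lost in 9 of 18 alternative settings. Without WT mouse 3, 113Q mouse 1, 113Q mouse 2 or 113Q mouse 3 the adjusted p was 0.0802, 0.105, 0.113 and 0.103. Without WT mouse 2, the lowest WT library, the log2 fold change was -2.05 (adjusted p = 0.00108), and without WT mouse 1, the highest, it was -1.23 (adjusted p = 0.0436). A term for libraries with epithelial transcripts gave -1.39 (adjusted p = 0.0946). The difference was -2.24 (adjusted p = 0.0497) in the fit of only the libraries lacking such transcripts and -0.53 (adjusted p = 0.00819) in that of only those holding them, each with a single mouse in a group.

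Phospholamban, Pln, on chr10:53337667-53345987 (plus strand), was nearly silent in WT. It had 1.15, 2.51 and 1.66 CPM in WT, from 39, 133 and 86 counts, and 67.1, 17.6 and 49.2 CPM in 113Q, from 6013, 1572 and 4585 counts. The lowest 113Q library was several times above the highest WT library, and the 113Q libraries spread 3.82-fold. The fitted difference was 24.7-fold, a log2 fold change of 4.62 (SE 0.66, edgeR adjusted p = 0.00543), and 99.8% of all tested genes had a lower log2 fold change. Leaving out each mouse in turn gave 4.21 to 5.01, passing each time. The call was lost with limma voom (4.46, adjusted p = 0.0509) and in the fit of the epithelial libraries only, with a single WT mouse (3.73, adjusted p = 0.327). In the libraries lacking them, with a single 113Q mouse, it was 5.55 (adjusted p = 1.5e-05). A non-coding gene model, Gm47644, covers 1644 of the 2759 exonic bases of Pln on the other strand. It has no row of its own, and without a stated strand setting reads from it and from Pln cannot be told apart.

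Pln and Atp2a2 are also expressed in smooth and cardiac muscle, so the markers of those tissues stand beside them. Of 8 smooth muscle markers 1 was higher, 2 were lower and 5 did not pass (with DESeq2, 4 were higher and 2 lower), the median log2 fold change was 1.17, none was at 0 in any library, and their summed level was 7010 to 7476 CPM in WT and 6174 to 6952 CPM in 113Q. Most of that sum was Des, which skeletal fibres also express. Des had 6308, 6459 and 6047 CPM in the WT mice and 4105, 5043 and 4777 CPM in the 113Q mice. Its log2 fold change was -0.43 (edgeR adjusted p = 0.0114) with TMM and 0.28 with library totals alone. The sum therefore does not give the direction of the other smooth muscle markers. Acta2, smooth muscle actin, had 46.4, 126 and 184 CPM in the WT mice and 867, 566 and 425 CPM in the 113Q mice (log2 fold change 2.38, SE 0.60, adjusted p = 0.037). That call was lost in 7 of 18 alternative settings, among them leaving out WT mouse 2 (adjusted p = 0.113) or each 113Q mouse in turn (0.0619 to 0.095). Myh11, smooth muscle myosin, named after its values were seen, had 29.9, 146 and 197 CPM in the WT mice against 864, 547 and 326 CPM in the 113Q mice (log2 fold change 2.22, adjusted p = 0.111). Tagln and Cnn1, actin-binding proteins of smooth muscle also named after their values were seen, had log2 fold changes of 1.69 (adjusted p = 0.0826) and 3.01 (adjusted p = 0.0952). Tagln passed without WT mouse 3 (adjusted p = 0.0477) and Cnn1 without WT mouse 1 (adjusted p = 0.0354). The groups did not overlap for Acta2, Myh11, Tagln or Cnn1, and 113Q mouse 1 was the highest library for each of them, as it was for Pln. No other marker of the list was higher in 113Q without overlap, though 113Q mouse 1 was also the highest library for Lmod1 (40.4 CPM). Synpo2, with the smallest p of the list, was lower in 113Q without overlap (log2 fold change -1.16, edgeR adjusted p = 9.99e-05). Lmod1 (0.66, adjusted p = 0.316) and Smtn (0.01, adjusted p = 0.934) overlapped between the groups and did not pass. The part of smooth muscle RNA in the Pln and Atp2a2 differences was not tested. Of the cardiac markers, Nkx2-5 was at 0 in every library, Myl7 reached at most 0.0536 CPM and Myh6 0.0781 CPM. The 7 cardiac markers summed to 8.62 to 12.2 CPM in WT and 7.30 to 16.1 CPM in 113Q, and of the 3 tested 0 passed with edgeR, DESeq2 or limma voom, with 1 (Ryr2) at an unadjusted p below 0.05.

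Of the other short regulators of SERCA, myoregulin (Mrln, listed under 2310015B20Rik) had 96.0, 78.0 and 84.0 CPM in the WT mice and 42.2, 47.0 and 36.0 CPM in the 113Q mice. The groups did not overlap, and the log2 fold change was -1.04 (edgeR adjusted p = 0.000391). Strit1, Arln and Erln were not analysed here.

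Calsequestrin 1, Casq1, on chr1:172209894-172219868 (minus strand), had 2864, 2608 and 3105 CPM in the WT mice against 1149, 1213 and 1297 CPM in the 113Q mice. The groups were far apart, and each spread little, 1.19-fold in WT and 1.13-fold in 113Q. The mean fell from 2859 ± 249 to 1219.8 ± 74.1 CPM (SD, n = 3 each), 2.34 times lower (log2 fold change -1.23, SE 0.10, edgeR adjusted p = 8.16e-05). Its exons share 156 bases with Gm17224 on the other strand, whose row held 2477 to 3693 counts beside 96721 to 161318 for Casq1.

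Calsequestrin 2, Casq2, the form of heart and slow fibres, lies on chr3:102086415-102146514 (plus strand). It had 390.3, 278 and 364 CPM in the WT mice and 738, 609.7 and 708 CPM in the 113Q mice. All 113Q libraries were above all WT libraries. The mean rose from 344 ± 59.0 to 685 ± 67.1 CPM (SD, n = 3 each), 1.99 times higher (log2 fold change 0.99, SE 0.14, edgeR adjusted p = 0.0011). The pumps Atp2a1 and Atp2a2 and both calsequestrins kept direction and call in all 18 alternative settings.

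Sarcalumenin, Srl, on chr16:4480216-4541816 (minus strand), showed the smallest difference. It had 1611, 1922 and 1843 CPM in the WT mice against 1525, 1468 and 1448 CPM in the 113Q mice. The groups did not overlap, but the log2 fold change of -0.28 (SE 0.09) did not pass (edgeR adjusted p = 0.0528). It passed in some settings, with an adjusted p of 0.0475 with RLE factors, 0.0457 with limma voom, 0.00773 with DESeq2 and 0.0248 without WT mouse 1. On leaving out each of the other mice in turn it did not pass (0.0849 to 0.153).

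Hrc, on chr7:45335290-45338974 (plus strand), binds calcium in the reticulum and interacts with triadin and SERCA. It had 1059.6, 960.1 and 1037 CPM in the WT mice and 625, 729 and 722 CPM in the 113Q mice. The groups were separate, and the mean fell from 1019 ± 52.2 to 692 ± 57.8 CPM (SD, n = 3 each). The log2 fold change was -0.56 (SE 0.09, edgeR adjusted p = 0.00265), its direction being the opposite with library totals alone.

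Parvalbumin, Pvalb, on chr15:78191114-78206400 (minus strand), had 2255, 1849 and 2265 CPM in the WT mice against 295, 785 and 500 CPM in the 113Q mice. The groups did not overlap, and the 113Q mice spread 2.66-fold against 1.23-fold in WT. The mean fell from 2123 ± 238 to 526 ± 246 CPM (SD, n = 3 each), 4.03 times lower, with a log2 fold change of -2.01 (SE 0.36, edgeR adjusted p = 0.00875). It was -2.94 (adjusted p = 2.85e-05) between the libraries without epithelial transcripts and -1.53 (adjusted p = 0.0844) between those with them, each with a single mouse in a group. Leaving out each mouse in turn gave -1.72 to -2.41, passing each time.

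A ratio of a pair of transcripts within a library does not depend on scaling between libraries. The log2 ratio of Atp2a1 to Atp2a2 counts was 8.21, 8.18 and 7.91 in the WT mice and 5.29, 5.58 and 5.75 in the 113Q mice. The groups did not overlap, and the mean went from 8.10 ± 0.17 to 5.54 ± 0.23, a 5.90-fold shift towards Atp2a2. The log2 ratio of Casq1 to Casq2 was 2.88, 3.23 and 3.09 in the WT mice and 0.64, 0.99 and 0.87 in the 113Q mice, a 4.70-fold shift towards Casq2 with no overlap. The log2 ratio of Sln to Pln was 11.54, 8.67 and 10.30 in the WT mice and 3.12, 5.33 and 3.85 in the 113Q mice. That is a 67.2-fold shift towards Pln, and the widest spread within groups of these ratios (SD 1.44 and 1.13). With a pseudocount of 1 CPM the mean difference of this ratio was -5.42 in place of -6.07. The log2 ratio of Pvalb to Atp2a1 was -3.14, -3.62 and -3.23 in the WT mice and -4.60, -3.51 and -4.14 in the 113Q mice, so these groups overlapped. These ratios carry no p, since 3 mice against 3 cannot reach an exact permutation p below 0.1.

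**Figure D3:**
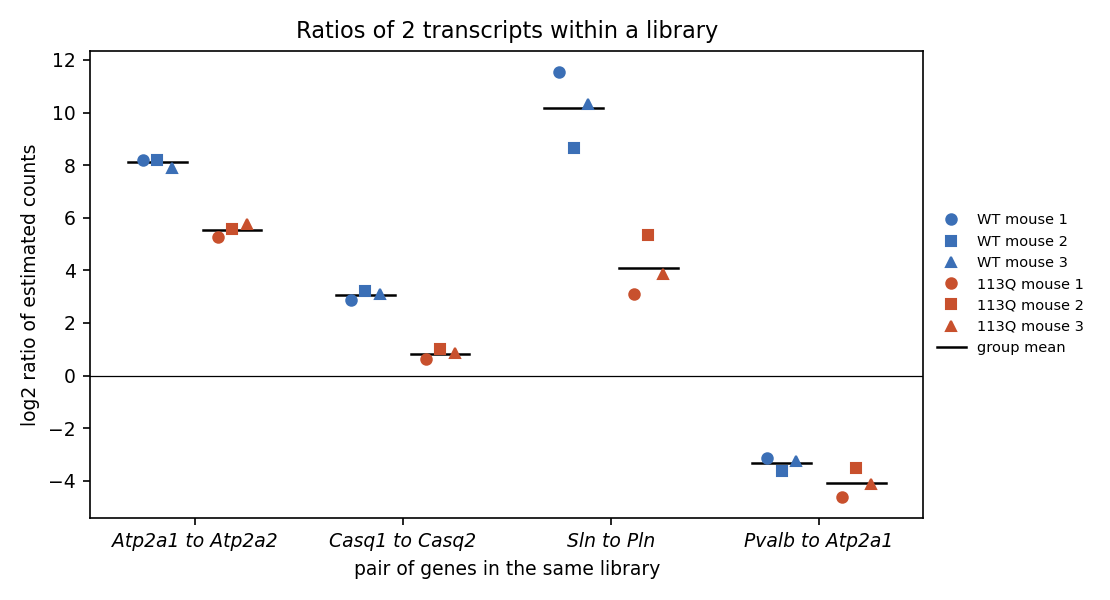
Log2 ratio of the estimated counts of 2 genes in the same library, with WT in blue, 113Q in orange, a symbol for each mouse and a line at the group mean. The groups are apart for Atp2a1 to Atp2a2, Casq1 to Casq2 and Sln to Pln, and overlap for Pvalb to Atp2a1.

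Further ratios, added after the values were seen, set the other transcripts beside the pumps. Casq1 to Atp2a1 differed by 0.14 on the log2 scale between the groups, Sln to Atp2a1 by -0.19 and Casq2 to Atp2a2 by -0.19, each with overlapping groups. Sln followed Atp2a1 closely in the 113Q mice (log2 ratio -3.61, -3.66 and -3.63) and loosely in WT (-2.53, -4.47 and -3.34). Srl to Atp2a1 and Hrc to Atp2a1 were higher in 113Q by 1.09 and 0.80, and Pln to Atp2a2 by 3.32, without overlap.

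Levels of different genes were compared per kilobase of merged exon. In WT, Atp2a1 led with 6106 ± 408 CPM per kilobase (SD, n = 3), followed by Pvalb with 2039, Sln with 1658 and Casq1 with 1548. Sln ran from 775 to 2609 over the WT mice, so it could not be ranked against Pvalb or Casq1. Hrc with 397 and Srl with 357 overlapped too, then came Casq2 with 134, Atp2a2 with 14.7, Atp2a3 with 2.99 and Pln with 0.643 CPM per kilobase, each apart from the next. In 113Q, Atp2a1 still led with 2383 ± 285 CPM per kilobase, followed by Casq1 with 660.4, Sln with 506 and Pvalb with 506, whose range of 283 to 754 took in both and reached down to the next genes. Srl (295), Hrc (269.65) and Casq2 (267) were next: all Srl libraries were above those of Hrc and Casq2, which overlapped. The margin was small, 288.9 in the lowest Srl library against 287.6 in the highest of Casq2. Per kilobase of the longest transcript the 113Q means of Srl and Hrc were closer, 296 and 287. The order of these libraries thus depends on the length used. Atp2a2 had 33.7, Pln 16.2 and Atp2a3 5.82 CPM per kilobase, and the ranges of Pln and Atp2a3 overlapped in 113Q. Per length, Atp2a1 made 99.7% ± 0.0297 of the SERCA transcripts in WT and 98.4% ± 0.18 in 113Q (SD, n = 3 each). The Atp2a2 share went from 0.241% ± 0.0285 to 1.41% ± 0.229. The Casq2 share of calsequestrin transcripts was 8.94%, 7.12% and 7.78% in WT and 31.6%, 26.6% and 28.2% in 113Q. Atp2a1 and Casq1 therefore remained the larger part of their pairs in every library of both groups.

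The genes whose pattern over the 6 libraries was most like that of a given transcript were ranked by the root mean square difference of centred log2 levels, among 9563 named genes of at least 5 CPM. For Atp2a1 they were Pygm (muscle glycogen phosphorylase, 0.044), Tuba4a (an alpha-tubulin, 0.078) and Ldhd (D-lactate dehydrogenase, 0.079). Pygm had 12091, 14066 and 12137 CPM in the WT mice and 4169, 5117 and 5160 CPM in the 113Q mice, with the same lowest library in 113Q as Atp2a1. For Atp2a2 they were Tmc7 (0.049), Igtp (an interferon-induced GTPase, 0.073) and Galk2 (a galactokinase, 0.077), all at 5.83 to 39.2 CPM. For Pvalb they were Myoz3 (a Z-disc protein of fast fibres, 0.15), Ampd1 (muscle AMP deaminase, 0.21) and Ky (0.21). Myoz3 had 615, 567 and 602 CPM in the WT mice against 82.3, 188 and 112 CPM in the 113Q mice, the same order among the 113Q mice as Pvalb. The measure describes likeness over 6 libraries and mostly records the step between the genotypes.

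Calcium release, the other side of the cycle, was represented by 12 genes. Of these, 7 were lower and 5 did not pass (with DESeq2, 8 were lower), with a median log2 fold change of -0.64 against 0.01 over all genes tested. Ryr1, the release channel, fell from 4496 ± 546 to 1557 ± 291 CPM (SD, n = 3 each), a log2 fold change of -1.53 (edgeR adjusted p = 0.000219). Jph1, which ties the reticulum to the surface membrane, had -0.78 (adjusted p = 0.000177), and Cacna1s, the voltage sensor, -0.92 (adjusted p = 0.000498). With library totals alone 5 of the 12 were higher and 1 lower, with a median of 0.08: only Ryr1 of them was still called lower, at -0.81.

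Of 10 other calcium pumps and exchangers, 2 were higher, 1 lower and 7 did not pass (median 0.41). The plasma membrane pump Atp2b3 was at a low level, 5.66 to 9.55 CPM in WT and 3.23 to 3.59 CPM in 113Q (log2 fold change -1.10, edgeR adjusted p = 0.00464). The plasma membrane pump Atp2b4 had 0.94 (adjusted p = 0.0453), a call lost in 10 of 18 alternative settings, and the Golgi pump Atp2c1 had 0.46 (adjusted p = 0.0267), lost in 4. Leaving out each mouse in turn gave 0 to 3 higher genes among the 10 by edgeR, with 0 reached without 113Q mouse 1 and without 113Q mouse 2. With all mice 3 were higher at an unadjusted p below 0.05, 3 with DESeq2 and 1 with limma voom. Of 6 genes of store-operated entry, 2 were higher and 4 did not pass (median 0.11). Stim2, a sensor of the calcium store, had 19.9, 20.7 and 17.1 CPM in the WT mice and 36.7, 39.7 and 42.2 CPM in the 113Q mice (log2 fold change 1.04, adjusted p = 0.000203). Orai2, a channel subunit, had 1.16 (adjusted p = 0.00518) from 1.57 to 2.31 CPM in WT, while their main muscle relatives Stim1 (0.07) and Orai1 (-0.06), named after their values were seen, did not pass and took either sign over the alternative settings.

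Of 8 genes listed for mitochondrial calcium uptake and exchange, 3 were higher, 1 lower and 4 did not pass (median 0.29). Higher were the sodium-calcium exchanger Slc8b1 (listed as Slc24a6, log2 fold change 0.62, edgeR adjusted p = 0.00518) and the uniporter gatekeepers Micu2 (listed as Efha1, 0.35, adjusted p = 0.00578) and Micu3 (listed as Efha2, 0.52, adjusted p = 0.0105). The lower gene was Letm1, a protein of the inner mitochondrial membrane named after its values were seen (-0.24, adjusted p = 0.0483). That call was lost on leaving out any single mouse and with limma voom, upper-quartile factors or no filter, and with library totals alone Letm1 was higher (0.48). Of 16 other calcium-binding buffers 14 were tested, of which 7 were higher, 3 lower and 4 did not pass (median 0.43). The endoplasmic reticulum chaperones Canx (0.52, adjusted p = 0.00151) and Calr (0.53, adjusted p = 0.00446) were higher, and Calm2, encoding calmodulin, was lower with TMM (-0.72, adjusted p = 0.000361) but not with library totals alone (0.0054). Ocm, a close relative of Pvalb, was at 0 in every library, which allows up to 3 counts or 0.0888 CPM in the shallowest, counting error only.

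Of 13 genes of calcium-dependent signalling, 2 were higher, 4 lower and 7 did not pass (median -0.20). The catalytic subunits of calcineurin moved apart: Ppp3ca had a log2 fold change of 0.49 (edgeR adjusted p = 0.00153) and Ppp3cb one of -0.41 (adjusted p = 0.00321), the latter 0.31 with library totals alone. The third catalytic subunit, Ppp3cc, named after its values were seen, was lower with TMM (-0.37, adjusted p = 0.0146), a call lost without 113Q mouse 3 (adjusted p = 0.0514), and had 0.35 with library totals alone. Camk2a, a calmodulin-dependent kinase, had -0.78 (adjusted p = 0.00223). The count of lower genes was 2 without 113Q mouse 3. With library totals alone, 64.9% of all tested genes were called higher. On that scale 7 of the 10 other pumps and exchangers were higher, and 6 of 6 genes of store-operated entry. So were 8 of 8 of mitochondrial uptake and exchange, 12 of 14 other buffers (1 lower) and 12 of 13 signalling genes. Mrln stayed lower (-0.32).

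**Figure D4:**
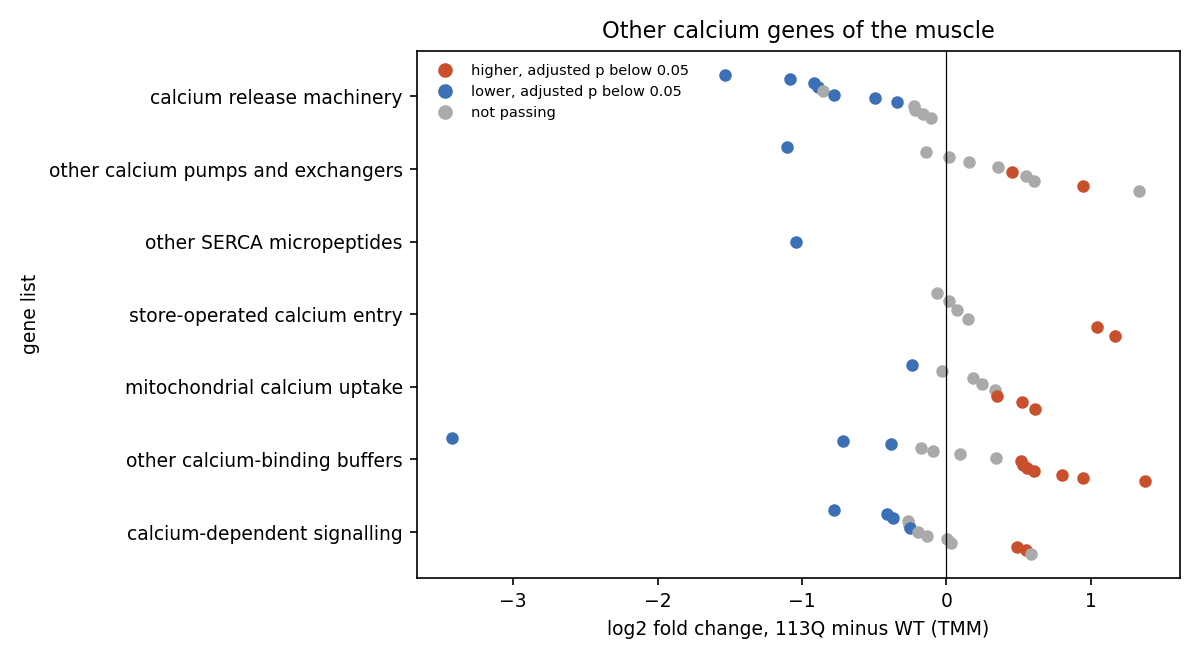
Log2 fold change with TMM scaling, 113Q minus WT, of each tested gene (points) in 7 lists of other calcium genes, orange where higher and blue where lower at an adjusted p below 0.05, grey where not passing. All 12 calcium release genes lie left of 0, with Ryr1 farthest at -1.53.

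Fibre-type and vessel markers moved with the genotype as well. Beside the rise of Atp2a2 and Casq2, which slow fibres share, 1 of 7 tested slow fibre sarcomere genes was higher (Tnnt1, 0.829 to 1.75 CPM in WT and 2.71 to 5.16 CPM in 113Q, log2 fold change 1.53, edgeR adjusted p = 0.00947). Myl3 was lower (-4.41, adjusted p = 3.8e-06), and 5 did not pass. The summed level of the slow list, nearly all of it Myl3, was 5340 to 6808 CPM in WT and 286 to 378 CPM in 113Q. All 8 endothelial markers were lower (median -0.70), with Pecam1 at -0.80 (adjusted p = 0.00033), and their sums were 432 to 566 CPM in WT and 302 to 312 CPM in 113Q. With library totals alone, 1 of the 8 was higher and the other 7 did not pass. The part of these cell types in the differences of the pumps and buffers was not tested.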

How the data were processed

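Messenger RNA of LA/BC muscle from 3 WT and 3 113Q mice was analysed. The deposited table holds estimated counts per gene, made by the authors with Cuffdiff 2.1.1 on the build mm10, per the submitters' processing notes, which also name TopHat2 2.0.9, Bowtie2 2.1.0, Cufflinks, cutadapt and FastQC 0.10.0. Not given in the sources used here are the gene annotation, how reads were filtered and whether strand was used. Values were rounded to whole numbers (5.38% to 5.96% of them per library had a fraction). All 27131 rows entered the filter. The 10 genes and the gene lists were chosen with earlier results of these data known.

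Genes were filtered with filterByExpr (minimum count 10) and tested with edgeR 4.0.16 in R 4.3.3 (TMM, robust quasi-likelihood F test, two-sided, Benjamini-Hochberg over 16960 genes, threshold 0.05). The biological coefficient of variation was 24.2%. The SE was taken as log2 fold change over the root of the F statistic. Alternatives were limma voom 3.58.1, DESeq2 1.42.0, RLE, upper-quartile and library-total scaling, other filters, unrounded values, each mouse left out, a replicate block, and a term for libraries with Epcam of at least 1 CPM. Added after seeing the data were fits of only the libraries with or without epithelial transcripts, and 6 ratios. Named were all 10, up to 3 genes per list with the smallest p, and for Atp2a1, Atp2a2 and Pvalb the 3 genes most alike in log2 (CPM + 0.5). Gene models and exon lengths come from GENCODE M21. A gene and a motif that the naming rule also held are not reported here. The scripts were tested on simulated data, where every tool made false calls above the nominal share, DESeq2 the most. That was a single simulated set in which far fewer genes changed than were called here. It therefore does not give the share of false calls in these data.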

Additional observations from a re-analysis of the deposited data

How the results depend on the processing

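Library totals alone changed the results most: 11725 genes passed (11015 higher and 710 lower, 93.9% higher against 47.6% with TMM), 3 of the 10 genes were lower and 5 higher, and the log2 fold changes of Srl (0.45), Hrc (0.16), Calm2 (0.0054), Ppp3cb (0.31), Ppp3cc (0.35), Letm1 (0.48), Orai1 (0.65), Des (0.28) and Tie1 (0.014) took the other sign, because that scaling shifts all genes upwards. With only the libraries without epithelial transcripts 3127 genes passed, from 3 libraries. Between only those with them 5 of the 10 genes were again lower and 3 higher, but Srl took the place of Pvalb and Atp2a3 that of Pln. Leaving out each mouse gave 4325 to 5402 passing genes, with 13.4% to 16.3% of those tested lower and 11.6% to 14.7% higher. Of the 10 genes, 4 to 6 were lower and 3 to 4 higher. Leaving out each mouse set Stim1 between -0.031 and 0.13 and Orai1 between -0.19 and 0.081. Stim1 was -0.050 in the libraries without epithelial transcripts and Orai1 0.051 in those with them. The labels do not say whether replicate numbers pair the mice. The correlations of same-numbered deviations were 0.115, 0.159 and -0.291, and WT mouse 2 correlated best with 113Q mouse 3 (0.330). With 3 mice per group, such correlations cannot decide whether the mice were paired. With the replicate block in the edgeR model 4737 genes passed, 15.2% of those tested being lower and 12.7% higher. Of the 10 genes, 4 were lower and 4 higher. Sln was at -1.55 (adjusted p = 0.0813), Srl at -0.27 (adjusted p = 0.107) and Atp2a3 at 0.95 (adjusted p = 0.00615). Over all results and settings, 1014 values stayed the same. For genes this meant the same direction and side of the threshold. For ratios it meant within the pooled SD of the main value, and for counts within 1.5 times. Of the rest, 70 lost the call, 23 gained it, 14 reversed and 4 counts moved by over 1.5 times. All 10 had at least 39 counts in every library, so the spread between 3 mice, not depth, limits them.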

Other observations

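Among the 113Q mice, the values of several genes followed different orders, which were noticed after the values were seen and were not tested over 3 mice. Pvalb had 295, 785 and 500 CPM in 113Q mice 1, 2 and 3. Actn3, the alpha-actinin of the fastest fibres, had 594, 1502 and 993 CPM. Myh4, the fastest myosin heavy chain, had 2036, 5064 and 2917 CPM. Both had the order of Pvalb, but every other listed fast fibre sarcomere gene had another order, with 113Q mouse 3 highest. Myh1 had 1513, 1495 and 1581 CPM, and Tnnc2 5863, 6268 and 7091 CPM. Pln had 67.1, 17.6 and 49.2 CPM, the reverse of the Pvalb order. Casq2, with 738, 609.7 and 708 CPM, had the order of Pln over a narrow range. Atp2a2, with 183, 186 and 164 CPM, followed neither. Myh11, a smooth muscle myosin, had 864, 547 and 326 CPM, sharing its highest mouse with Pln but not its lowest.

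The reticulum buffers did not move as a group beside their pump. Relative to Atp2a1 in the same library, Casq1 differed by 0.14 on the log2 scale between genotypes, Hrc by 0.80 and Srl by 1.09. Casq2, the remaining reticulum buffer, rose where Atp2a1 fell (log2 fold changes with TMM of 0.99 and -1.36).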
